A study of Mus musculus with 2 samples.

Results

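The clustered protocadherin locus of the mouse lies on chromosome 18, and CTCF binding across it was measured here from 36950001 to 38050000 (mm8), a window of 1.1 Mb or 1100 bins of 1 kb. These are 1100 of the 2630648 bins of 1 kb on the assembled chromosomes. The window was chosen by values of the same libraries, since a dense row of CTCF-enriched regions had already been seen in it. Its excess of ChIP reads and of regions is therefore a description, and no test was made of it. The window was split into an alpha, a beta and a gamma segment of 410, 340 and 350 kb, starting at 36950001, 37360001 and 37700001, which hold about the Pcdha, Pcdhb and Pcdhg genes in this order.

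The study profiled CTCF in V6.5 embryonic stem cells of the mouse. The line is male, its genotype is given as 129SvJaexC57BL/6, and the cells were used at passages 10 to 15 after being grown on irradiated feeder fibroblasts that were later removed by passaging on gelatin. One library held DNA immunoprecipitated with CTCF (the ChIP) and 1 held whole-cell extract, sonicated chromatin without immunoprecipitation, from the same line. The labels name no treatment or engineered allele in either group, give the antibody only by its target, and cover this 1 line alone. With 1 library a group there is no replicate check. The intervals of counts, shares and ratios (95%, exact Poisson, binomial or conditional) cover counting error only. The interval of the median distance (95%) comes from the ranked distances, taken as independent. Intervals of strand offsets join the outer 95% limits of the plus-strand and minus-strand medians, and are not themselves 95% intervals.

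Clustered protocadherins are cadherin-like adhesion proteins of the cell surface. Neurons express small and varied subsets of them, which give single cells an identity and let a cell tell its own branches from those of others. In the alpha and gamma clusters each variable exon has its own promoter and is spliced to constant exons shared by the cluster, whereas beta genes are single-exon genes without constant exons. CTCF is a zinc-finger protein that halts cohesin and so anchors chromatin loops. At this locus it is known to bind near most variable promoters, inside alpha variable exons and at distant enhancers.

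Of the genes in question, 58 were named. They comprise 14 alpha genes, of which 12 are numbered variable genes (Pcdha1 to Pcdha12) and 2 are C-type genes (Pcdhac1 and Pcdhac2), 22 beta genes (Pcdhb1 to Pcdhb22), and 22 gamma genes in A, B and C subfamilies of 12, 7 and 3 members. All 58 were found in the RefSeq gene table, in the order alpha, beta, gamma. There Pcdhac2 is followed by Pcdhb1, and Pcdhb22 by Slc25a2, a mitochondrial carrier gene, ahead of Pcdhga1. That table is of build GRCm38.p6 and not of mm8, so no enriched region was tied to 1 gene, and the assignment of segments to clusters could not be checked against these data. Regions are given by position.

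Depth was 2371134 reads in the ChIP and 4691104 in the extract. The window held 2292 ChIP reads, or 2.08 per kb (2.00 to 2.17), against 0.901 per kb over the genome. The extract had 1819 reads there, or 1.65 per kb (1.58 to 1.73), against 1.78 per kb over the genome. Scaled by library totals, ChIP reads were 2.49 times the extract reads (2.34 to 2.65). On the rest of chromosome 18 this ratio was 0.955 (0.947 to 0.963). Scaling by background bins in place of library totals gave 5.12 and 1.96. That scaling multiplies every ratio by the same factor and brings the ratios given below for gaps and for stretches between sites, many of them under 1, above 1. It also brings chromosome 18 outside the window and outside regions to 1.47, so a ratio above 1 on that scaling does not by itself mark CTCF signal.

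Among windows of the same length on chromosome 18, the locus stood first in most measures of CTCF signal. It was set beside 78 other windows of 1.1 Mb that held at least 100 extract reads, of 80 laid end to end. CTCF-enriched regions, found by comparing ChIP with extract in 200-bp windows over the whole genome, numbered 77 in the locus, and the other windows had a median of 11 and at most 51. In the locus 12.2% of the 200-bp windows with a ChIP read passed, beside 2.95% over the genome. The ChIP-to-extract ratio of 2.49 was above the 0.606 to 1.64 of the other windows. Regions took 61.95% of all ChIP reads of the locus (59.93 to 63.95), against a median of 18.7% and at most 46.8% elsewhere. Total ChIP reads per kb were higher in 1 window, the neighbouring one from 35850001 to 36950000, which had 2.16 per kb, 51 regions and 2.60 extract reads per kb.

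**Figure D1:**
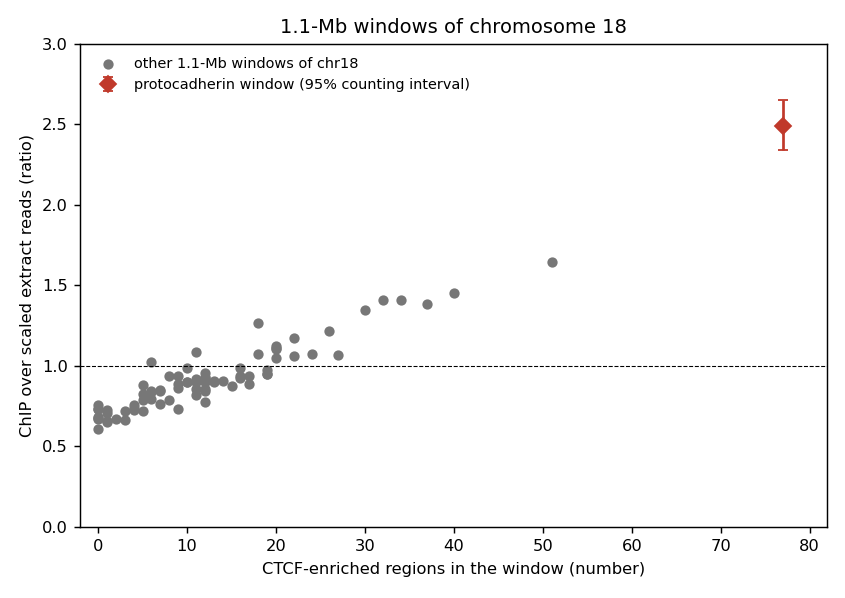
Each point is a window of 1.1 Mb on chromosome 18, placed by its number of CTCF-enriched regions (horizontal axis) and its ratio of ChIP reads to extract reads scaled by library totals (vertical axis). The red diamond is the protocadherin window with 77 regions and a ratio of 2.49, with its 95% counting interval, and the dashed line marks a ratio of 1.

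By these counts the locus had more sites than other windows, and its single sites were of middling strength. The median region of the locus held 16 ChIP reads, and the median region on the rest of chromosome 18 held 15. In 24 of the other windows the median region was stronger than in the locus. Regions with at least 40 reads made up 5 of the 77 (6.49%), against 5.07% of the 966 regions elsewhere on the chromosome. Those with fewer than 10 reads made up 15 of the 77 (19.5%), against 28%.

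Single bins gave the same picture. A bin of 1 kb was counted where it held at least 5 ChIP reads and at least 5 times the scaled extract, with the genome average as the least expected value. This was so in 82 of the 1100 bins (7.45%), beside 1.2% of the bins on the rest of chromosome 18 and 1.51% over the genome. By segment these bins numbered 18 of 410 (4.39%), 28 of 340 (8.24%) and 36 of 350 (10.3%). An enriched region overlapped 79 of the 82. With the libraries exchanged, so that extract was tested over ChIP, 0 bins and 0 regions of the locus passed, and 30 regions did over the genome. The highest extract bin of the locus held 10 reads, and the extract had 1.65 reads per kb there against 1.78 over the genome. Few bins could have passed, and nothing is concluded from the 0.

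**Figure D2:**
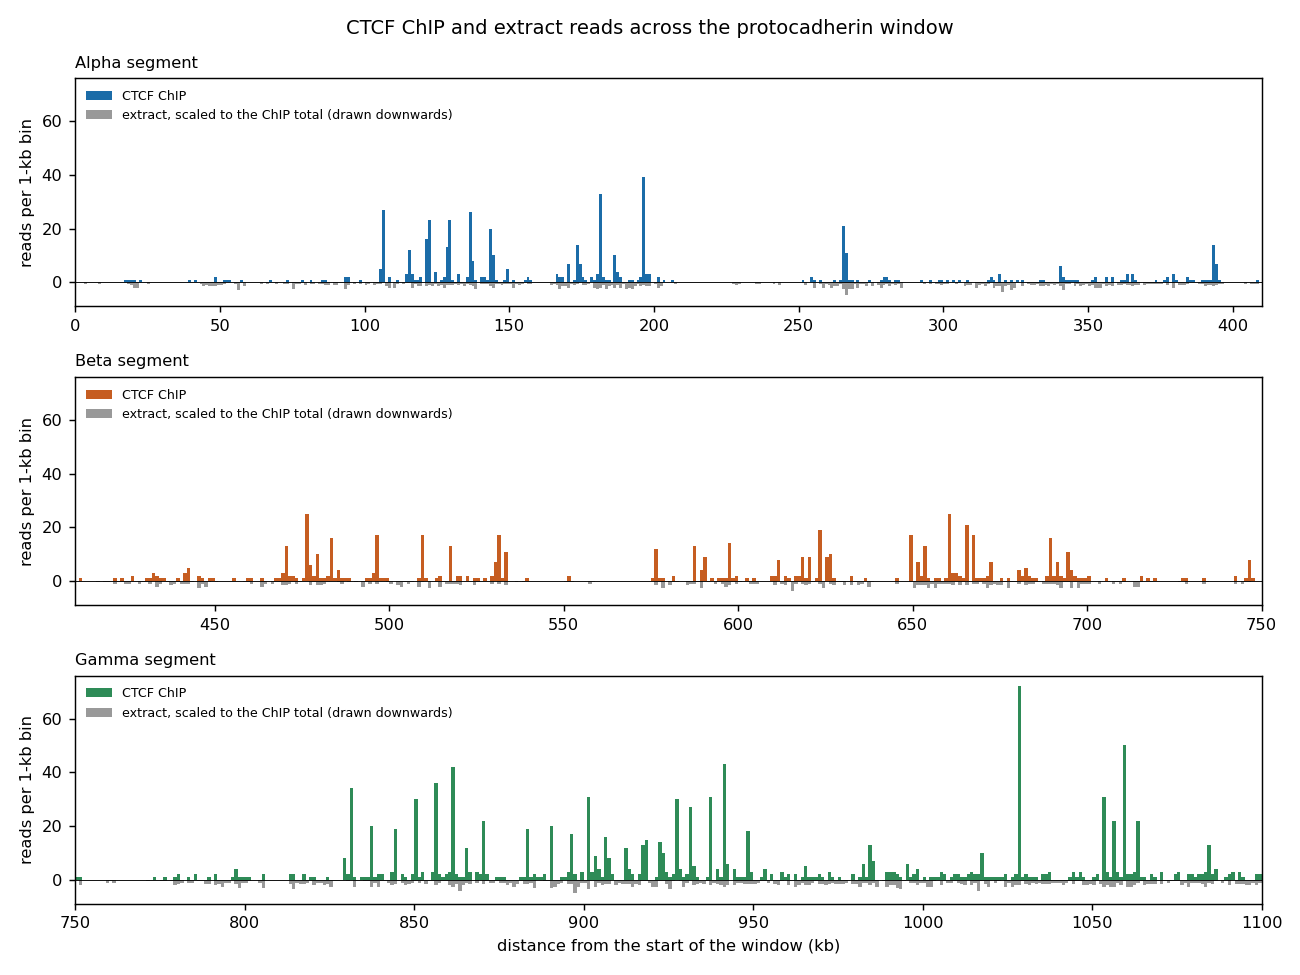
ChIP reads (coloured bars, upwards) and extract reads scaled to the ChIP total (grey bars, drawn downwards) in bins of 1 kb, by distance from the start of the window in kb, with 1 panel for each segment. ChIP reads stand in narrow bars separated by near-empty stretches, the tallest of which holds 72 reads in the gamma segment, 39 in the alpha segment and 25 in the beta segment.

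CTCF sites were unevenly spread along the locus. Counted in 11 steps of 100 kb from its start, regions numbered 0, 14, 1, 2, 5, 8, 14, 1, 12, 13 and 7. The alpha segment held 17 regions (4.15 per 100 kb, 2.42 to 6.64), the beta segment 28 (8.24 per 100 kb, 5.47 to 11.9) and the gamma segment 32 (9.14 per 100 kb, 6.25 to 12.9). The intervals of all 3 segments overlap. ChIP reads were 1.92 times the scaled extract in the alpha segment (1.70 to 2.16), 2.79 times in the beta segment (2.46 to 3.17) and 2.72 times in the gamma segment (2.49 to 2.98). The alpha interval lies below those of the other segments, and the beta and gamma intervals overlap. The alpha segment was also the one with the longest stretches free of regions, and these count in its ratio.

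Most sites stood in runs. Taking together regions whose neighbouring summits were at most 30 kb apart, 72 of the 77 (93.5%) fell into 5 runs of at least 5 regions, limits chosen once the data were known. On the rest of chromosome 18, 20.6% of regions stood in such runs. The window was chosen for its dense regions, and denser regions stand closer together. The shares of runs, pairs and distances here and below are therefore descriptions, and what density alone would give was not tested. The runs held 14 regions in the alpha segment, 9 and 18 in the beta segment, and 24 and 7 in the gamma segment. Elsewhere on the chromosome the largest run held 18 regions and the next 10. Over the alpha run the ratio of ChIP to scaled extract was 4.04 (3.37 to 4.86). It was 4.68 (3.59 to 6.13) and 3.06 (2.57 to 3.66) over the beta runs, and 4.34 (3.79 to 4.97) and 3.17 (2.63 to 3.83) over the gamma runs. The interval of the alpha run overlaps those of the other runs. Each run is cut from its first region to its last, and regions were called for high ChIP over extract. High ratios over runs therefore follow from how runs were drawn, and nothing is concluded from them about the lower ratio of the whole alpha segment.

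The alpha run extended over 91 kb, from 37055901 to 37146900, with 14 regions in a stretch that had 4.02 ChIP and 1.97 extract reads per kb. Its regions held a median of 14 ChIP reads (5 to 40), and 6 of the 14 held no extract read. Its strongest region, at 37145901-37146900, had 40 reads in the ChIP against 1 in the extract, 79.1 times the scaled extract (13.4 to 3200). At 37071751-37072800 the counts were 36 and 3 (23.7 times, 7.5 to 120). At 37130951-37131900 they were 33 and 4 (16.3 times, 5.80 to 63.4). With overlapping intervals, the 3 could not be ranked at this depth.

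The first region of the alpha run, at 37055901-37056950, had 29 ChIP reads and 0 extract reads, at least 19.1-fold higher when 3 extract reads are put in as a floor. The floor leaves out the counting error of the ChIP reads, and the 95% lower limit that includes it was 14.6. The weakest, at 37120551-37120800, had 5 and 0, at least 3.29-fold higher on the same floor, with a lower limit of 1.81. All 4 of the longest regions of the locus, those of at least 900 bp, lay in this run. They made up 23.5% of the alpha segment's regions, and 1.24% of regions on the rest of chromosome 18 were that long. No region of the beta or gamma segments was, where the longest measured 550 and 700 bp.

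The sites of the alpha segment came in close pairs. Maxima of ChIP density in 150 bp were resolved inside and between regions where they lay at least 300 bp apart with a dip to 50% or less between them, a reading added with the data in view. The segment gave 21 maxima, and 9 of its 20 neighbouring pairs (45%) were 400 to 1000 bp apart. The beta segment had 0 such pairs among 28 and the gamma segment 2 among 32 (6.25%). The lower limit matters here: beta maxima at 37426741 and 37427136 were 395 bp apart and not counted, and 1 gamma pair was counted at 400 bp. On the rest of chromosome 18, 34 of 993 neighbouring pairs (3.42%) lay this close. Of the 9 alpha pairs, 4 lay within 1 long region and 5 across 2 regions.

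Within the alpha run, 8 pairs followed each other with single maxima at 37065116 and 37120651 between them. The first pair stood at 37056086 and 37056676, 590 bp apart, with 11 and 10 ChIP reads within 150 bp of its maxima. A smaller rise lay between them and was too near to be resolved. The second stood at 37071961 and 37072661, 700 bp apart, with 18 and 11 reads. At 37078481 and 37079216, 735 bp apart, the reads numbered 9 and 21, the most unequal of the pairs in favour of the right side.

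The next pairs were of unequal width. That at 37086211 and 37086936 was 725 bp wide and held 11 and 14 reads. That at 37093471 and 37094196 was also 725 bp wide, with 14 and 10 reads. After the single weak site, the pair at 37123781 and 37124361 was 580 bp wide with 12 and 7 reads. These 3 pairs were each called as 2 regions.

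The last pairs of the run were the narrowest of the 9. The maxima at 37131191 and 37131701 were 510 bp apart with 16 and 11 reads, and those at 37146111 and 37146636 were 525 bp apart with 13 and 22 reads. A ninth pair lay far from the run, at 37343456 and 37344396, 940 bp apart, with 11 and 6 reads. The left maximum held more reads in 6 of the 9 pairs and the right one in 3. Summed over the pairs the sides were even, with 115 reads on the left, 112 on the right, and 16 extract reads over both.

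**Figure D3:**
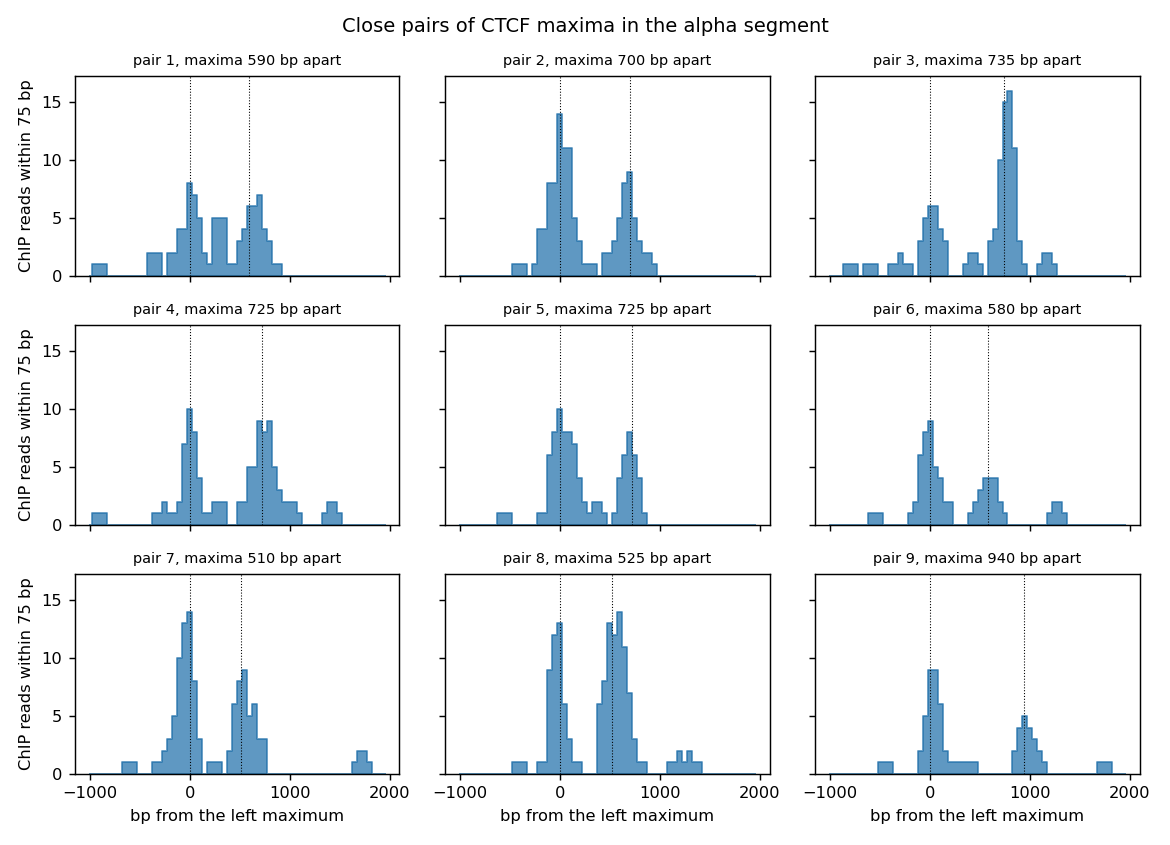
ChIP reads within 75 bp of each position (vertical axis) around the 9 close pairs of the alpha segment, by distance in bp from the left maximum. Dotted lines mark both maxima, which are 510 to 940 bp apart.

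Between the alpha run and the first beta run stood 3 regions. That at 37215651-37216200 stood alone, with gaps of 68.75 and 127.1 kb beside it, and had 29 reads against 7 in the extract, 8.19 times after scaling (3.51 to 22.1). The longest gap of the locus followed, from 37216201 to 37343300. There the ChIP had 80 reads and the extract 227, a ratio of 0.697 (0.533 to 0.903), close to the 0.715 of chromosome 18 outside regions. The extract had 1.79 reads per kb in this gap, against 1.76 on the rest of chromosome 18. The cause of the gap was not tested.

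Some other gaps had fewer extract reads. The first 100 kb of the window, which held no region, had 24 ChIP and 79 extract reads, or 0.79 extract reads per kb. There 51% of bins held no read of either library. The gap from 37146901 to 37215650 had 0.756 extract reads per kb, and within it 19 consecutive bins from 37158001 to 37177000 held no read of either library. The gap from 37483451 to 37526600 had 4 ChIP and 13 extract reads in 43.15 kb, or 0.301 extract reads per kb. Absence of CTCF could not be read from such stretches. Over the locus 24.6% of bins held no read of either library, against a median of 17.6% in the other windows of chromosome 18. By segment the share was 31.7% in alpha, 30.9% in beta and 10.3% in gamma. Coding exons of the family resemble each other, and how the authors treated reads with several matches is not given in the sources used here; its part in these gaps was not tested.

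Strong sites were few in the beta segment. Its 28 regions held a median of 12 ChIP reads (6 to 27), the same median as the 17 of the alpha segment (5 to 40), against 20 in the gamma segment (6 to 72). In the beta segment 2 regions (7.14%) had at least 20 reads. In the gamma segment 18 of 32 regions (56.2%) did, in the alpha segment 6 of 17 (35.3%), and on the rest of chromosome 18 35.6%. Under 10 reads stood 25% of beta, 23.5% of alpha and 12.5% of gamma regions. The beta segment also had the fewest extract reads, 1.25 per kb (1.14 to 1.38). Alpha had 1.37 (1.26 to 1.48), with an interval that overlaps that of beta, and gamma had 2.38 (2.22 to 2.55). No extract read was held by 13 of the 28 beta regions. Whether the lower coverage than in gamma has a part in the lower read counts of beta regions was not tested. The beta ChIP-to-extract ratio of 2.79 was not below that of the gamma segment.

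The strongest beta region, at 37610651-37611150, had 27 reads in the ChIP and 1 in the extract (53.4 times, 8.80 to 2185). The next, at 37426451-37427000, had 23 and 0, at least 15.2-fold higher on the floor of 3 reads with a lower limit of 11.4, and its bin of 25 reads was the highest of the segment. The weakest had 6 and 0, at least 3.95-fold higher with a lower limit of 2.33, and of the 4 such regions the one at 37622801-37623000 had the smallest excess in its best 200-bp window. In RPM, reads scaled to the library total, the strongest had 11.4 (7.51 to 16.6) and the weakest 2.53 (0.929 to 5.51), with intervals that do not overlap.

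Beta regions stood in 2 runs. The first had 9 regions over 62.9 kb from 37420551 to 37483450, and the second 18 regions over 117.85 kb from 37526601 to 37644450. Their median regions held 15 and 12 reads. Distances of 2.2 to 2.5 kb recurred, with 6 of the 27 distances between neighbouring beta summits (22.2%) in that range. In the alpha segment 0 of 16 were, in the gamma segment 1 of 31, and on the rest of chromosome 18 12 of 964 (1.24%). The range was picked with the distances in view. At most 5 summits of the segment fell within 20 kb, as in the stretch from 37599201 to 37618000 with 87 ChIP and 3 extract reads in its regions, and other stretches held as many.

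A single weak region, from 37696501 to 37696750 with 6 ChIP reads, lay between the beta and the gamma runs. Regions were absent from 37696751 to 37779600, an 82.85-kb gap with a ratio of 0.602 (0.400 to 0.885) and 1.39 extract reads per kb.

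Within the locus, the gamma segment held the most regular row of sites. Its main run had 24 regions over 118.75 kb, from 37779601 to 37898350, or 1 region in 4.95 kb. Neighbouring summits there had a median distance of 5025 bp (quartiles 4376 and 5994), and 18 of the 23 distances were between 4 and 8 kb. Over the whole gamma segment, without the limit of 30 kb that defines a run, 18 of 31 distances (58.1%) fell in that range, and on the rest of chromosome 18 9.44% did, a range chosen once the data were known. Over the run the ChIP had 682 reads and the extract 311, a ratio of 4.34 (3.79 to 4.97), and 76.5% of these ChIP reads lay inside the regions.

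Sites of the gamma run differed in strength over a range of 6 to 48 reads, with a median of 19.5. The strongest, at 37891601-37892200, had 48 reads against 2 in the extract (47.4 times, 12.4 to 403). At 37810901-37811450 the counts were 41 and 5 (16.2 times, 6.41 to 52.6), and beside it at 37805901-37806500 they were 36 and 3 (23.7 times, 7.5 to 120). The 3 intervals overlap. At 37781251-37781800 the ChIP had 32 reads and the extract 0, at least 21.1-fold higher on the floor of 3 reads, with a lower limit of 16.2.

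A count of 29 ChIP reads was shared by 5 regions, 2 in the alpha segment and 3 in this run. Those of the run lay at 37851351-37851900 with 7 extract reads, at 37877251-37877800 with 0, and at 37887351-37887950 with 3. Beyond the run, a single region at 37934651-37935200 had 20 ChIP reads and 1 extract read. The weakest of the run was its first, from 37779601 to 37779850, with 6 ChIP and 0 extract reads. At most 6 summits fell within 20 kb, as in the stretch from 37851662 to 37867960 with 95 ChIP and 14 extract reads in its regions, and overlapping stretches held as many. In the alpha segment the most was also 6, from 37078301 to 37094350, with 85 and 9 reads.

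**Figure D4:**
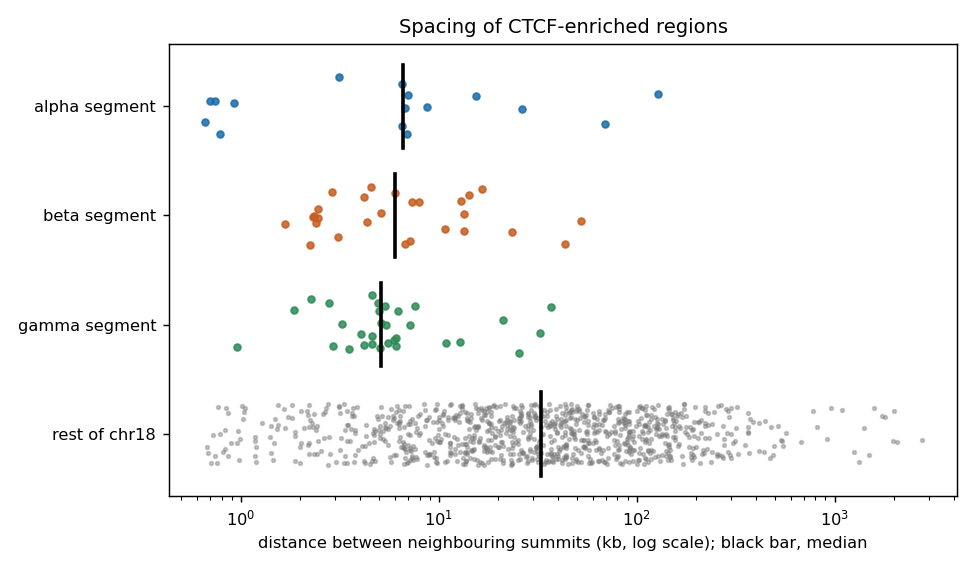
Distances between neighbouring summits in kb on a log scale, with 1 point for each neighbouring pair and a black bar at the median, for the 3 segments and for the rest of chromosome 18. Points of the gamma segment gather around its median of 5130 bp, those of the alpha segment split into a group under 1 kb and a wider one, and the rest of the chromosome has a median of 32751 bp.

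Over the whole locus the median distance between neighbouring summits was 5732 bp (4613 to 6876), and 72.4% of distances were under 10 kb. On the rest of chromosome 18 the median was 32751 bp and 23.2% were under 10 kb. The segments had medians of 6634, 5979 and 5130 bp. Distances under 1 kb numbered 5 of 16 in the alpha segment, 0 of 27 in the beta segment and 1 of 31 in the gamma segment. Because regions within 200 bp were joined, shorter distances could not appear.

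The highest ChIP read counts of the window stood after the main gamma run. At 37977951-37978650 the ChIP had 72 reads (30.4 RPM, 23.8 to 38.2) and the extract 3, a ratio of 47.4 (15.6 to 235). At 38009351-38009950 the counts were 50 and 1, a ratio of 98.8 (16.9 to 3981). The interval of the first, in RPM, lies above that of the alpha segment's strongest region (16.9 RPM, 12.1 to 23.0). It overlaps that of the 48-read region at 37891601 in the main gamma run (20.2 RPM, 14.9 to 26.8). The region of 50 reads (21.1 RPM, 15.7 to 27.8) overlaps it too, so neither could be ranked above it. The run of 7 regions from 37967251 to 38034450 that holds the regions of 72 and 50 reads had a median of 20 reads and 2.74 extract reads per kb, the most of the 5 runs. Without an mm8 annotation it cannot be said whether this run lies inside the gamma cluster or beyond it.

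At the edges of the window, the last region outside was at 36928751 to 36929250 with 20 ChIP reads, and the first inside was the one at 37055901. At the far end the last inside, from 38034101 to 38034450, held 11 reads, and the next outside, from 38061401 to 38061900, held 30.

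ChIP reads between the sites were few. Outside regions and 1 kb on each side, it had 0.650 ChIP reads per kb (0.599 to 0.704), against 0.630 per kb (0.624 to 0.635) on the rest of chromosome 18. The intervals overlap. With the 1-kb flanks kept in, the locus had 0.819 per kb (0.765 to 0.875) against 0.660 (0.654 to 0.665), and the intervals no longer overlap. Relative to the extract, the ratio was 0.846 (0.768 to 0.932) against 0.715 (0.708 to 0.722), where the intervals do not overlap. By segment it was 0.777 in alpha, 0.930 in beta and 0.859 in gamma. Within the runs but outside regions, here with the 1-kb flanks kept in, ratios ranged from 1.01 to 1.59. The highest was in the first beta run (1.11 to 2.25). These include reads at the edges of regions and cannot be compared with the ratios above, which leave the flanks out.

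Reads of both strands lay offset around the sites. Summits were located on 5′ ends already moved by a fixed distance, which favours an offset near 2 times that distance, so the values are a description and no independent readout. In the 77 regions, the median 5′ end on the minus strand lay 204.5 bp after that on the plus strand (196 to 217), among reads within 300 bp of the summits. On the rest of chromosome 18 the offset was 197 bp (194 to 201), and the intervals overlap. The segments had offsets of 185 bp (153 to 212) in alpha, 202 bp (186 to 230) in beta and 213.5 bp (199 to 239) in gamma. Extract reads around the summits of the locus, 63 on the plus and 61 on the minus strand, gave 15 bp, with a wide interval of -108 to 160. On the rest of chromosome 18, with 900 and 908 extract reads, the offset was 44.5 bp (11 to 73), which does not include 0. The extract is therefore not shown to be free of an offset.

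**Figure D5:**
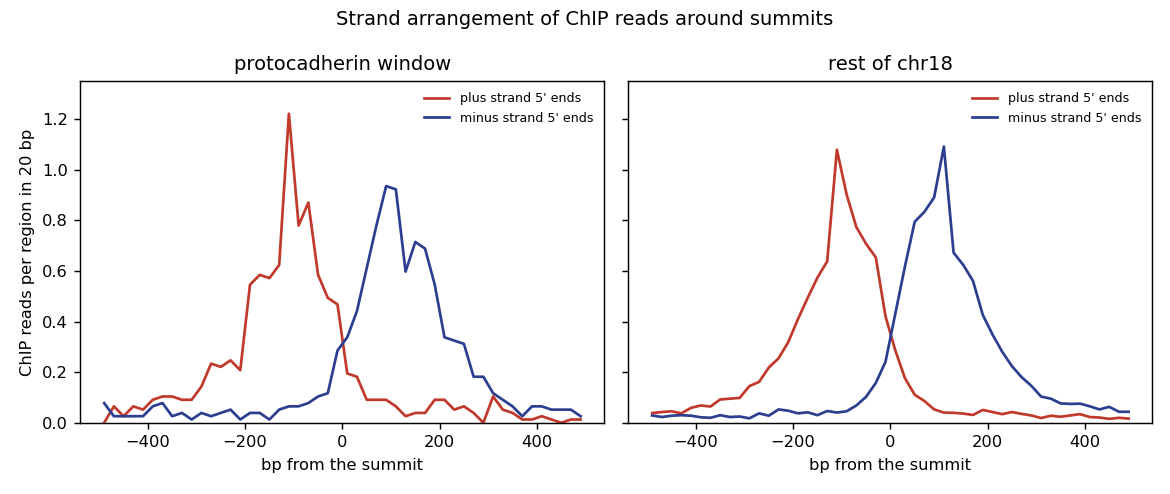
ChIP reads per region in steps of 20 bp, by distance in bp from the summit, for 5′ ends on the plus strand (red) and the minus strand (blue). Left, the 77 regions of the protocadherin window, and right, the 966 regions of the rest of chromosome 18, with strand offsets of 204.5 and 197 bp.

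All 77 regions had reads on both strands, but the plus-strand share ranged from 5.88% to 83.3%. The lowest share was at 37617501-37618000, with 1 plus-strand and 16 minus-strand reads. Regions with an extract read numbered 49, with ratios of 4.94 to 98.8 and a median of 17.8. The other 28 regions (36.4%) held none, against 29.3% of regions on the rest of chromosome 18. The 2 extract lanes covered the window alike, at 390 RPM (366 to 415) and 385 RPM (360 to 413).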

How the data were processed

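Per the submitters' processing notes the build was mm8, and the authors deposited 1 line per aligned 36-base read, with chromosome, start, end and strand; which aligner or filter was used is not given in the sources used here. The deposited files held 0 repeated reads of the same position and strand. Every read count, ratio and fold here was computed from these lines. The libraries held 2371134 and 4691104 reads, the latter from 2 lanes.

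5′ ends were moved 102 bp towards 3′ and the extract scaled by 0.506, the ratio of library totals. Regions were called over the genome in 200-bp windows every 50 bp (exact Poisson, Benjamini-Hochberg adjusted p under 0.001 over 6352508 windows, at least 5 times the largest of the genome average and the extract in 1, 5 and 10 kb, joined within 200 bp), which compares libraries and not conditions. The script was tested on simulated data. Analyses used Python 3.11.15, scipy 1.17.1 and pandas 2.3.3.

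The members and lists were chosen with earlier results of these data known. Regions named were the 12 with the most ChIP reads, ties included, the strongest and weakest of each segment, its densest 20 kb and the longest gap; others were chosen after their values were seen. Promoters of the members were not used here, so motifs were not counted.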

Additional observations from a re-analysis of the deposited data

How the results depend on the processing

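Scaling the extract by background bins in place of library totals raised the ChIP-to-extract ratio to 5.12 in the window, 3.94 in the alpha, 5.74 in the beta and 5.59 in the gamma segment. Background bins are the bins of 10 kb that held a read and whose ChIP count was at most the median, so they were picked for low ChIP. The scaling multiplies all ratios alike, taking the rest of chromosome 18 to 1.96 and the longest gap to 1.43. Stretches outside regions came to 1.74 in the window and 1.47 on the rest of chromosome 18. A fold limit of 10 left 50 bins in place of 82. Reads within 200 bp of summits gave a strand offset of 189 bp. ChIP reads outside regions were 0.819 per kb with no flanks left out (0.660 on the rest of chromosome 18, so that the intervals no longer overlap) and 0.598 per kb with regions at an adjusted p under 0.05 (0.604 on the rest). The count of regions ranged from 69 to 84 over 8 settings. Of 50 alternative values in all, 42 stayed within the interval of the main value or within 1.5 times of a count. The close alpha pairs numbered 7 to 9 under 5 settings added after seeing the data, and pairs of the other segments were not recounted. No paired analysis was possible because there is a single library in each group, and no replicate could be left out. The motif alternative was not run. Depth limits weak sites most, and regions of 5 or 6 reads have intervals reaching over several-fold.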
